A study of Rattus norvegicus with 12 samples.

Results

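The genes described here are 9 enzymes of the citric acid cycle, 2 of them subunits of succinate dehydrogenase: Cs, Idh2, Idh3a, Ogdh, Suclg1, Sdha, Sdhb, Fh and Mdh2. They were chosen by gene name, each name matched 1 row, and they are 9 of 30560 genes in the count table. RNA from the red inner portion of the gastrocnemius, a calf muscle, of 6 wild-type male Wistar Kyoto rats at 9 weeks of age was sequenced after ribosomal depletion, in 12 libraries. The mitochondria group (n = 6) holds organelles pulled from fresh muscle by immunoprecipitation and then digested with RNase A and proteinase K, with 10 ng of RNA put into each library. The muscle group (n = 6) holds frozen whole tissue of the same 6 rats, which had neither enzyme treatment, with 50 ng of RNA per library. The groups thus differ in isolation, in fresh or frozen material, in enzyme treatment, in RNA input and in read depth at once, and these cannot be told apart. The study asked which RNAs reside in muscle mitochondria.

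The citric acid cycle runs in the mitochondrial matrix, where it oxidises acetyl groups to carbon dioxide and hands electrons to NADH and, at succinate dehydrogenase, directly to the respiratory chain. All of its enzymes are encoded by nuclear genes. Their mRNAs are translated in the cytosol, in part at the mitochondrial surface, and the proteins are imported. Red, oxidative muscle is rich in these enzymes, and citrate synthase activity is a standard gauge of mitochondrial content in muscle.

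Total gene counts were 720111 to 1785865 in the mitochondria libraries and 24309444 to 32055355 in the muscle libraries. The mitochondrial genome took 12.9% to 51.5% of counts in mitochondria and 26.4% to 35.9% in muscle. Of 9 skeletal muscle marker names 8 were matched, and their summed level was 1328 to 3426 CPM (counts scaled to the library's total of gene counts) in mitochondria and 150812 to 215055 CPM in muscle. Marker sums of other cell types were 121.5 to 209.4 CPM in mitochondria against 220.7 to 405.5 CPM in muscle for endothelium (3 genes), 155.1 to 246.6 against 749.2 to 3757 CPM for fibroblasts (3 genes), and 100.8 to 170 against 14.35 to 25.95 CPM for macrophages (3 genes). Adipocyte markers (3 genes) summed to 40.3 to 68.7 CPM in mitochondria and 83.9 to 147.5 CPM in muscle, Schwann cell markers (3 genes) to 36.4 to 68.7 and 13.7 to 89.3 CPM, and smooth muscle markers (2 genes) to 110.9 to 211.7 and 144.5 to 244.2 CPM. In the edgeR test with TMM used below, 30.3% of all genes were lower and 63% higher. Lower were all 8 skeletal muscle, 3 endothelial, 3 fibroblast and 2 smooth muscle markers. Of the 3 Schwann cell markers 1 was lower and 0 higher. Of the 3 adipocyte markers 1 was lower and 2 higher, and of the 3 macrophage markers 0 were lower and 2 higher. Of 3 red blood cell names 1 was matched, with 8.81 to 18.1 CPM in mitochondria and 2.99 to 5.92 CPM in muscle. With TMM it was called lower in mitochondria, so its direction turned with the scale. None of these genes was without counts over a whole group, and the part of other cell types in the results below was not tested. In whole tissue, fewer cells of a type and less RNA per cell cannot be told apart.

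All 9 cycle enzyme mRNAs were lower in mitochondria than in muscle, in each of the 6 rats and without overlap between the groups. Their mean level in mitochondria was 5.90% (Sdha) to 16.0% (Suclg1) of that in muscle. Together they made up 0.0286% ± 0.0069 of all counts in mitochondria and 0.335% ± 0.0166 in muscle (SD, n = 6 each), which is 11.7-fold less. The quasi-likelihood test of edgeR, scaled by TMM, called all 9 lower at an adjusted p under 0.05, and the highest adjusted p was 3.38e-22, for Suclg1. Of 24679 genes tested, 30.3% were called lower and 63% higher, 93.3% in all, and the CPM of the groups did not overlap for 6.77% that were lower and 79.5% that were higher. DESeq2 also called all 9 lower, with 21.8% of genes lower.

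**Figure D1:**
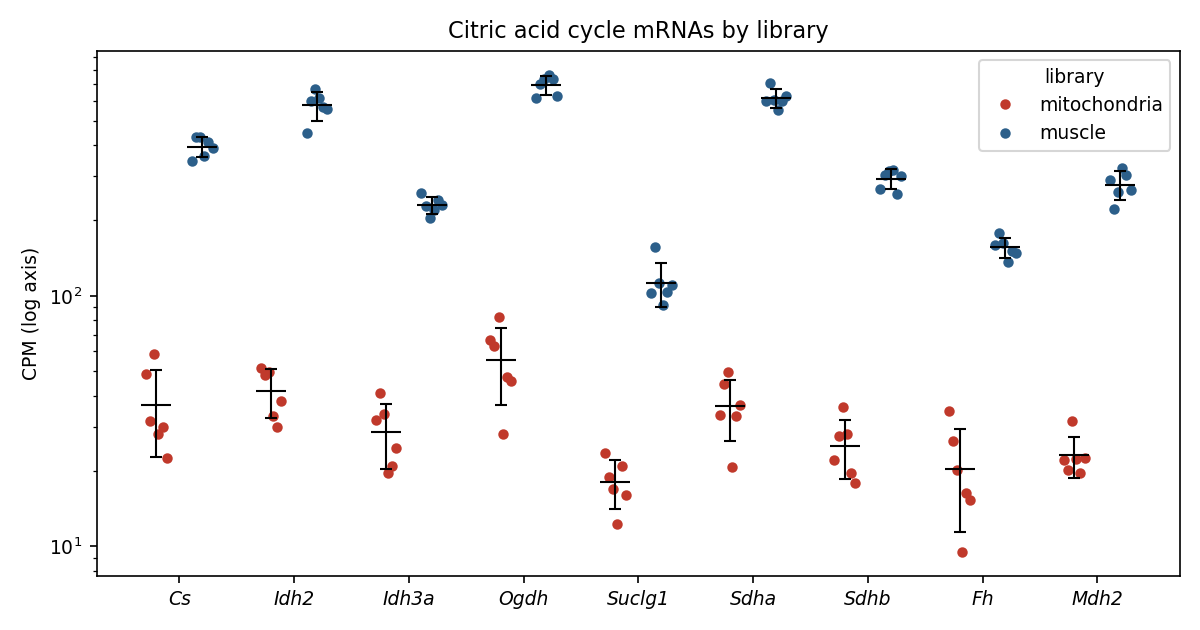
CPM of the 9 mRNAs (log axis) in the 6 mitochondria and 6 muscle libraries, with points for libraries and bars for mean ± SD. Every mitochondria point lies below every muscle point of the same gene, from 9.52 to 82.2 CPM in mitochondria and from 91.9 to 763.7 CPM in muscle.

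The size of the fall depends on the scale. The median log2 fold change over all genes lay 2.10 units higher with total counts than with TMM, and it was above 0 with both. The median log2 fold change (mitochondria over muscle) of the 9 mRNAs was -5.63 with TMM and -3.55 with total counts, against 2.51 and 4.61 over all genes tested. The median over all genes also differed between settings that tested other numbers of genes. With TMM it was 3.56 without a filter and 1.08 after thinning to 573903 nuclear counts. It was 1.18 to 1.21 with 1 muscle library left out and 2.60 to 2.74 with 1 mitochondria library left out. Only 202 genes, 0.819% of those tested, had a lower fold change than the median of the 9 with either scaling. Most genes tested were called higher in mitochondria (63% with TMM). Respiratory chain and ATP synthase mRNAs such as Atp5f1b (-8.89) and Cox6c (-7.54) fell further than any of the 9 with TMM. Muscle fibre mRNAs such as Acta1 (-11.2) and Ckm (-10.2) did too, while Ndufs7 (-4.12) fell less. These genes were picked after their values were seen. Whether the 9 stand apart from other mRNAs abundant in muscle was not tested. With total counts 9.03% of genes were called lower and 84.3% higher, and relative to mitochondrial genome counts 4.4% were lower, and all 9 enzymes were among them in both (edgeR). Relative to mitochondrial genome counts, their log2 fold changes ran from -3.75 for Sdha to -2.43 for Suclg1. With TMM the 4 mitochondrial genome markers were also called lower, as were 30.3% of all genes. Their log2 fold changes were -1.41 (Mt-nd1), -1.62 (Mt-cyb), -2.27 (Mt-co1) and -2.38 (Mt-atp6). In CPM these 4 summed to 18483 to 58929 in mitochondria and 39112 to 54289 in muscle, with overlap.

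**Figure D2:**
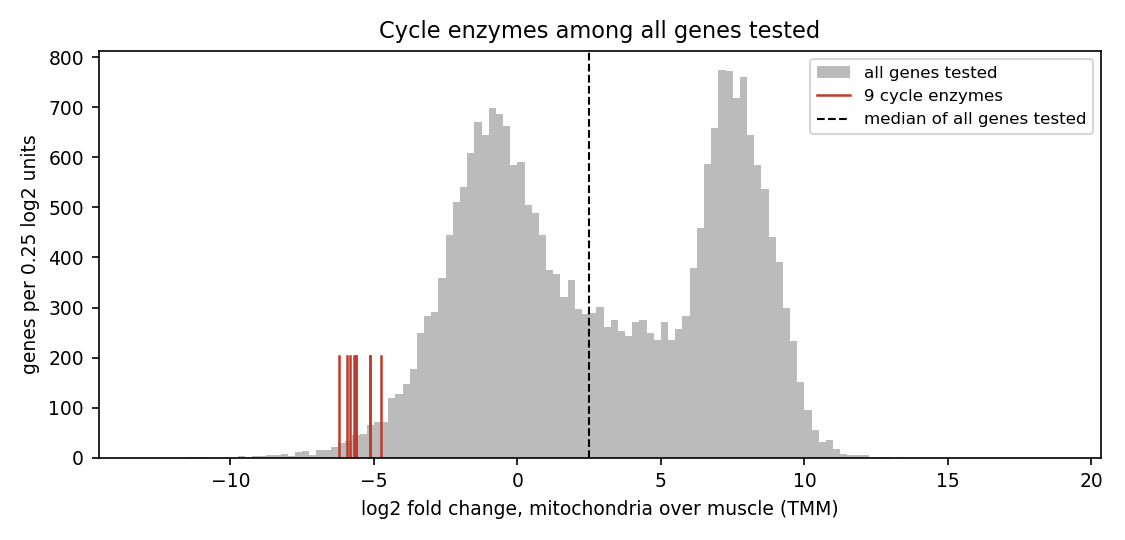
Number of genes per 0.25 log2 units of fold change, mitochondria over muscle with TMM scaling, for 24679 genes, with red lines at the 9 cycle enzymes. The red lines lie between -6.21 and -4.76, in the left tail and far from the median of 2.51 (dashed).

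Cs encodes citrate synthase, which condenses acetyl-CoA with oxaloacetate at the entry to the cycle. Its level was 22.6 CPM at the lowest, 30.8 at the median and 58.55 at the highest in mitochondria, against 345.7, 399 and 430.4 CPM in muscle. The highest mitochondria library stood at well under the lowest muscle library. The mean was 10.8-fold lower in mitochondria by CPM, and the log2 fold change with TMM was -5.61 ± 0.15 (SE, edgeR adjusted p = 1.46e-24).

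Idh2 and Idh3a encode mitochondrial enzymes that turn isocitrate into 2-oxoglutarate, the first with NADP and the second as the catalytic subunit of the NAD-dependent form. Idh2 ranged from 29.8 CPM through a median of 43.2 to 51.4 CPM in mitochondria, and from 446.1 through 585.3 to 672.1 CPM in muscle. Idh3a had 19.6, 28.3 and 41.1 CPM at these points in mitochondria, and 203.8, 229 and 257.9 CPM in muscle. The fall was 13.8-fold for Idh2 and 8.02-fold for Idh3a by mean CPM. On the TMM scale the log2 fold changes were -5.92 ± 0.15 for Idh2 (SE, edgeR adjusted p = 7.66e-25) and -5.13 ± 0.13 for Idh3a (edgeR adjusted p = 9.43e-25).

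The pair did not keep its proportion. Idh2 had 1.18 to 1.69 reads per read of Idh3a in mitochondria and 1.73 to 3.30 in muscle, so the groups did not overlap. The log2 ratio, with 0.5 added to each count, averaged 0.55 ± 0.18 in mitochondria and 1.32 ± 0.31 in muscle (SD, n = 6 each), and was lower in mitochondria in 6 of 6 rats. That difference of -0.77 ± 0.15 (SE) had p = 0.00216 in a two-sided exact permutation test, the smallest this design can give, and 0.00433 after Benjamini-Hochberg adjustment over the 2 ratios tested. A ratio within a library needs no scaling, and it shows unequal change of the pair without saying which of them changed. The mean levels of all 9 members spanned 18.1 to 55.6 CPM in mitochondria and 113 to 695.4 CPM in muscle. Whether the shift of this ratio is particular to the pair was not tested.

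Ogdh encodes the E1 subunit of the 2-oxoglutarate dehydrogenase complex, which forms succinyl-CoA and is a control point of the cycle. Its CPM was 28 to 82.2 with a median of 55.4 in mitochondria, and 613.5 to 763.7 with a median of 717.3 in muscle. By mean CPM it was 12.5-fold lower in mitochondria (log2 fold change with TMM -5.82 ± 0.15, SE, edgeR adjusted p = 1.01e-24). The rat with the largest difference had a 27.3-fold fall and the one with the smallest an 8.92-fold fall.

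Suclg1 encodes the alpha subunit of succinyl-CoA ligase, the step of substrate-level phosphorylation, and pairs with either of the beta subunits Sucla2 and Suclg2. It fell least of the 9. Libraries of mitochondria had 12.3 to 23.6 CPM (median 17.9) and those of muscle 91.9 to 156.6 CPM (median 107.2), a mean fall of 6.24-fold. With TMM the log2 fold change was -4.76 ± 0.16 (SE, edgeR adjusted p = 3.38e-22). Counts were low on the mitochondria side: 15 reads in replicate 3 give 16.9 CPM, with a 95% exact Poisson interval of 9.45 to 27.9 CPM that covers counting error only.

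Sdha and Sdhb encode the flavoprotein and the iron-sulfur subunit of succinate dehydrogenase, which is complex II of the respiratory chain and the one cycle enzyme bound to the inner membrane. Sdha fell furthest of the 9, with 20.7, 35.0 and 49.5 CPM (lowest, median, highest) in mitochondria against 552.1, 603.7 and 707 CPM in muscle. Sdhb had 18.0, 24.9 and 36.0 CPM in mitochondria against 256.1, 302.9 and 317.5 CPM in muscle. Neither gene overlapped between the groups. The mean falls were 16.95-fold for Sdha (log2 fold change with TMM -6.21 ± 0.15, SE, edgeR adjusted p = 3.71e-25) and 11.6-fold for Sdhb (-5.63 ± 0.15, edgeR adjusted p = 1.32e-24).

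Sdhb reads per Sdha read numbered 0.491 to 1.35 in mitochondria and 0.426 to 0.575 in muscle, with overlap between the groups. The log2 ratio averaged -0.51 ± 0.50 in mitochondria and -1.07 ± 0.17 in muscle (SD, n = 6 each), and it was higher in mitochondria in 6 of 6 rats. The difference was 0.56 ± 0.21 (SE, two-sided exact permutation p = 0.00866, also 0.00866 after adjustment over the 2 ratios). Mitochondria replicate 4, which had the highest ratio and the highest share of mitochondrial genome counts, moved this value most. Without it the difference was 0.38 (exact permutation p = 0.0173). Here too, whether the shift of the ratio is particular to the pair was not tested.

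**Figure D3:**
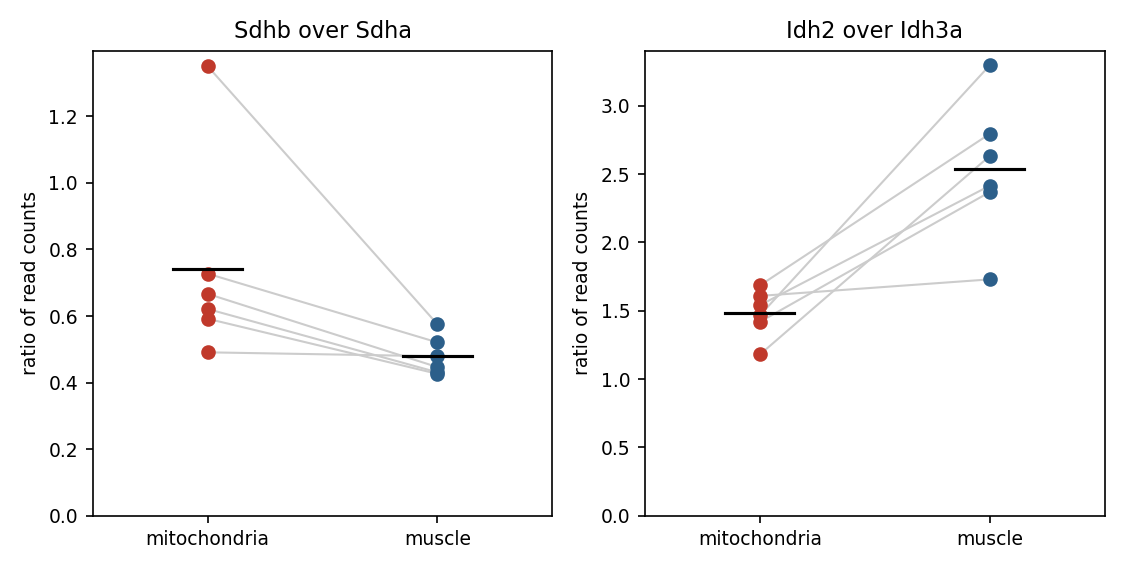
Reads of Sdhb per read of Sdha (left) and of Idh2 per read of Idh3a (right), with points for libraries, grey lines joining the 2 libraries of a rat and bars for the group means. Sdhb over Sdha reaches 1.35 in 1 mitochondria library and 0.727 at most in the others, while the muscle libraries lie between 0.426 and 0.575, and Idh2 over Idh3a lies at 1.69 or below in mitochondria and at 1.73 or above in muscle.

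Fh and Mdh2 encode fumarate hydratase and the mitochondrial malate dehydrogenase, the steps that return fumarate to oxaloacetate. Fh was at 9.52 to 34.7 CPM in mitochondria (median 18.3) and at 135.9 to 178.6 CPM in muscle (median 155.5), a 7.65-fold lower mean. Mdh2 was at 19.7 to 31.5 CPM in mitochondria (median 22.3) and at 221.9 to 325.2 CPM in muscle (median 276.8), a 12-fold lower mean. Their log2 fold changes with TMM were -5.13 ± 0.15 for Fh (SE, edgeR adjusted p = 1.41e-23) and -5.68 ± 0.15 for Mdh2 (edgeR adjusted p = 7.49e-25). In CPM, the coefficient of variation among mitochondria libraries was 43.9% for Fh, where counting error alone gives 21.5%, and 18.6% for Mdh2, where it gives 19.4%. Scaled to nuclear counts it was 30.1% for Fh and 19.8% for Mdh2.

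The promoters of 4 of the 9 genes are shown as sequence context, from RefSeq's table on the build GRCr8. No value here measures transcription from them. The counts were made on another build. Each runs 5′ to 3′ on the gene's strand from 250 bases before to 50 bases after the start site, and the table held 8 of the 9 genes. Cs is shown as the entry enzyme, Sdha and Sdhb as subunits of 1 complex whose ratio differed, and Mdh2 as the enzyme of the closing step. Capitals mark matches, on either strand, to TGCGCA (an NRF1 motif), CCGGAAG (ETS family), AAGGTCA (a nuclear receptor motif), CCAAT (NF-Y) or GGGCGG (Sp1). No capitals of different motifs overlap in these 4 promoters.
Cs (chr7:1348139-1348438, + strand): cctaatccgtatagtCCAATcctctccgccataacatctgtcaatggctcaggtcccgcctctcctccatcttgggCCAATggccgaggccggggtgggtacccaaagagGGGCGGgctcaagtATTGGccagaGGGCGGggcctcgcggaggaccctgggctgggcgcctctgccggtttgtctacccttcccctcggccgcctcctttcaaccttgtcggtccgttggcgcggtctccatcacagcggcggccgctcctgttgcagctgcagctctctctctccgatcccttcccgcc
Sdha (chr1:30764303-30764602, + strand): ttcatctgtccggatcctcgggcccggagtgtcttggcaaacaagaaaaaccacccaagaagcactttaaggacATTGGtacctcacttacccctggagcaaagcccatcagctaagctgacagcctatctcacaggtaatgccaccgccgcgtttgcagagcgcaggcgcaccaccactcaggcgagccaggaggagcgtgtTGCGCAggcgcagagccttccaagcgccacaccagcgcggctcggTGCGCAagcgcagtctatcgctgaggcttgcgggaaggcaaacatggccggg
Sdhb (chr5:158547684-158547983, + strand): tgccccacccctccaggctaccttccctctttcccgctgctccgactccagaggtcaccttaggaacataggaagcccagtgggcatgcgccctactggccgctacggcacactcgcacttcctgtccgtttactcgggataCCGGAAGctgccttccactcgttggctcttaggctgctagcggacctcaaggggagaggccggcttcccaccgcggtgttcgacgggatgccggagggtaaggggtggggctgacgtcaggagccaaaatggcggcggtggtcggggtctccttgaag
Mdh2 (chr12:26543792-26544091, - strand): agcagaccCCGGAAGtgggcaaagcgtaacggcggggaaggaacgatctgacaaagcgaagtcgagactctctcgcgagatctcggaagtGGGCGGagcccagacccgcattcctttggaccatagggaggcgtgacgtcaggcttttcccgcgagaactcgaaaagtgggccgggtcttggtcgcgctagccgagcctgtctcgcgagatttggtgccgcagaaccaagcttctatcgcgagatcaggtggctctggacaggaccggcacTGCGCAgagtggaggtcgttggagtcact

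The Cs promoter held 3 NF-Y and 2 Sp1 matches, that of Sdha 2 NRF1 matches and 1 NF-Y match, that of Sdhb 1 ETS match, and that of Mdh2 1 each of the ETS, NRF1 and Sp1 motifs. Over the 8 promoters, NF-Y matches were in 6 and Sp1 matches in 5, against 37.5% and 33.1% of all 33469 promoters in the table. TGCGCA was in 2 of 8 (7.24% of all) and CCGGAAG in 2 of 8 (8.75% of all). AAGGTCA was in none of the 8 (4.61% of all). The pair of succinate dehydrogenase subunits shared no motif of the 5. The GC content was 53% to 70% in the 8 promoters, with a median of 60.7%, against a median of 51.7% over all. These are matches of letters only.

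The proportions among the 9 mRNAs differed between the groups for some members. As a share of their summed counts, Sdha made up 12.7% ± 2.14 in mitochondria and 18.4% ± 1.43 in muscle (SD, n = 6 each), without overlap. Suclg1 made up 6.50% ± 1.45 in mitochondria against 3.36% ± 0.578 in muscle, and Idh3a 10.0% ± 1.45 against 6.89% ± 0.866, both without overlap. The shares of Cs, Idh2, Ogdh, Sdhb, Fh and Mdh2 overlapped between the groups. Cs took 12.6% ± 2.5 in mitochondria and 11.8% ± 0.636 in muscle, and Mdh2 8.34% ± 1.79 and 8.31% ± 1.28. These shares were not tested.

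Among mitochondria libraries, the members tended to be high or low in the same library. Replicate 3, with 12.9% mitochondrial genome counts, had the highest value of 5 members, and replicate 4, with 51.5%, had the lowest value of 5. Scaled to nuclear counts in place of total counts, the 9 together were at 404.9 to 452.9 in mitochondria and at 4189 to 5420 in muscle. Their coefficient of variation in mitochondria was then 3.93%, where counting error alone gives 5.40%, against 24.1% in CPM. For single members the coefficient of variation per nuclear count was 11.5% (Idh2) to 30.1% (Fh) in mitochondria, and it was smaller than per total count for 7 of 9, all but Sdhb and Mdh2. Counting error alone gives 12.9% (Ogdh) to 22.1% (Suclg1) per total count, since a member had 15 to 94 reads in a mitochondria library and 2233 to 23507 in a muscle library.

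The coefficients of variation in CPM were 18.6% to 43.9% in mitochondria and 7.98% (Idh3a) to 19.9% (Suclg1) in muscle, where the members ranked the rats differently. Replicate 2 was the highest for Cs, Suclg1, Sdha and Fh and the lowest for Mdh2. Replicate 4 was the highest for Ogdh, Sdhb and Mdh2 and the lowest for Suclg1, Sdha and Fh. Replicate 1 was the highest for Idh3a and the lowest for Cs, Idh2 and Ogdh.

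**Figure D4:**
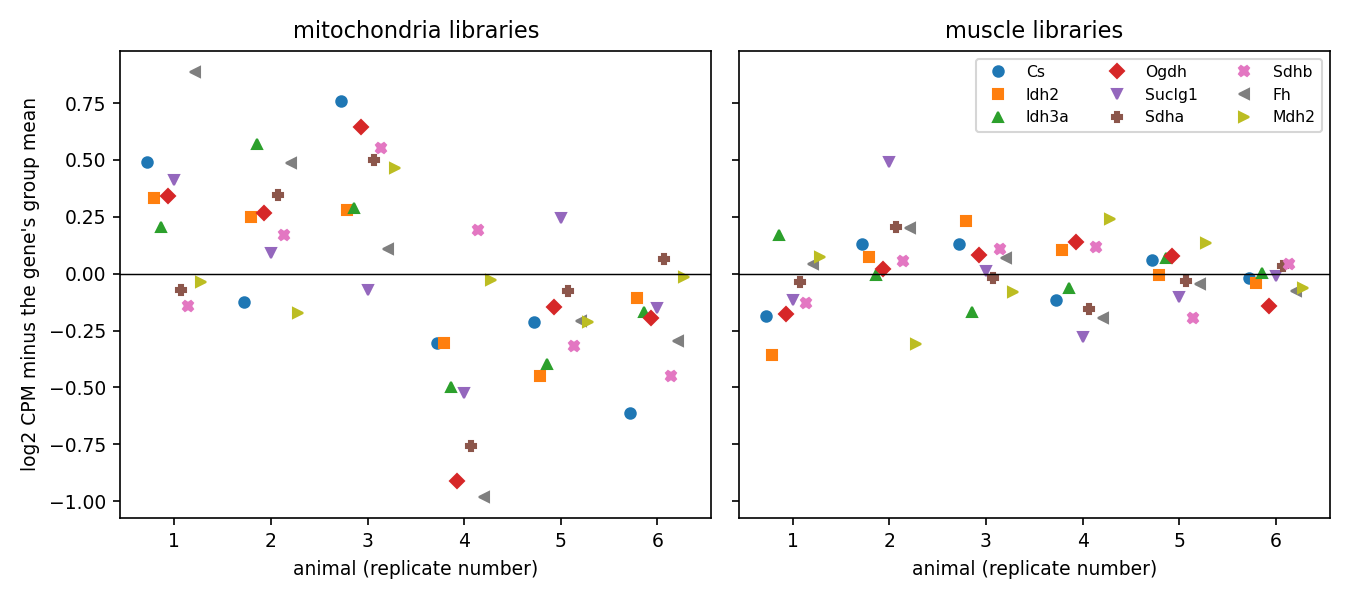
Log2 CPM of each of the 9 mRNAs minus its own mean over the 6 libraries of the group, by rat, in mitochondria (left) and muscle (right). In mitochondria, 8 of 9 members lie above 0 in replicate 3 and 1 of 9 in each of replicates 4, 5 and 6, and in muscle the number above 0 runs from 3 to 7.

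The other subunits and isoforms of the same enzymes, a list of 9 genes, were lower in mitochondria for 8 and higher for 1 (edgeR, TMM), with a median log2 fold change of -4.85 against 2.51 over all genes tested. Over all genes 30.3% were lower and 63% higher with TMM, and 9.03% and 84.3% with total counts. Sucla2, the ATP-forming beta subunit that partners Suclg1, had the largest fall of them, with 15.8 ± 4.87 CPM in mitochondria and 295.6 ± 20.5 CPM in muscle (SD, n = 6 each, log2 fold change -6.33 ± 0.15, SE, edgeR adjusted p = 1.31e-25). The GTP-forming beta subunit Suclg2 had 31.5 ± 7.65 CPM in mitochondria and 38.5 ± 4.48 CPM in muscle, with overlap. It was called lower with TMM (-2.43) but not with total counts (-0.33), where 7 were lower and 1 higher. Sdhc and Sdhd, the membrane anchors of complex II, were at 23.7 ± 5.25 and 12.6 ± 1.65 CPM in mitochondria, against 98.55 ± 10.8 and 191.3 ± 14.1 CPM in muscle. Idh3b, Idh3g, Dlst and Dld, of the isocitrate and 2-oxoglutarate dehydrogenases, had mean falls of 8.18-fold, 12.1-fold, 6.25-fold and 6.65-fold by CPM.

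Ogdhl, an Ogdh-like protein best known from brain, was the 1 gene of that list that rose. It had 39.8 to 84.4 CPM in mitochondria (median 56.8) and 0.552 to 1.17 CPM in muscle (median 0.691). The mean was 80.7-fold higher in mitochondria, and the log2 fold change with TMM was 4.15 ± 0.18 (SE, edgeR adjusted p = 1.86e-19). Ogdh and Ogdhl thus went in opposite directions with both scalings. Their mean levels were 55.6 CPM (Ogdh) and 60.4 CPM (Ogdhl) in mitochondria, against 695.4 and 0.749 CPM in muscle. Between 27803 and 28708 genes had at least 1 count in a mitochondria library, against 16931 to 17776 in a muscle library of greater depth, and 63% of genes tested were called higher. The part of this in the rise of Ogdhl, and of the genes with low muscle counts given below, was not tested.

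Of 4 named assembly factors of succinate dehydrogenase, 3 names were found, and Sdhaf1 stood in 2 rows, so that 4 rows were tested. With TMM 3 were lower and 1 higher, and with total counts 2 were lower and 1 higher. Sdhaf3 was lower with TMM (-2.30) but not called with total counts (-0.26, edgeR adjusted p = 0.380). It had 5.68 ± 1.42 CPM in mitochondria and 6.96 ± 0.945 CPM in muscle (SD, n = 6 each), with overlap. The shares over all genes tested were 30.3% lower and 63% higher with TMM, and 9.03% and 84.3% with total counts. Sdhaf2, which attaches flavin to Sdha, had 37.4 ± 5.63 CPM in mitochondria and 60.6 ± 5.18 CPM in muscle (SD, n = 6 each, log2 fold change -2.78 ± 0.12, SE, edgeR adjusted p = 2.41e-19). Scaled to total counts, its log2 fold change was -0.70. Against the counts of the mitochondrial genome it was -0.46 and was not called (edgeR adjusted p = 0.387). The Sdhaf1 row with the largest fall of the list (ENSRNOG00000047045) had 11.2 ± 4.95 CPM in mitochondria and 33.5 ± 3.16 CPM in muscle. Another Sdhaf1 row (ENSRNOG00000037541) rose and had 32 reads in mitochondria and 5 in muscle over 6 libraries each. Reads can be split between such copies, so both values are uncertain.

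The third list held 20 genes that fill or drain the cycle, shuttle its intermediates across the inner membrane or act as cytosolic counterparts. With TMM 14 were lower, 5 higher and 1 not called (median -3.40), and with total counts 11 were lower, 8 higher and 1 not called (median -1.28). Of all genes tested, 30.3% were lower and 63% higher with TMM, and 9.03% and 84.3% with total counts. Got2, the mitochondrial aspartate aminotransferase of the malate-aspartate shuttle, had 28.55 ± 9.77 CPM in mitochondria and 482.6 ± 29.8 CPM in muscle (SD, n = 6 each, log2 fold change -6.20 ± 0.16, SE, edgeR adjusted p = 7.24e-25). Mdh1, the cytosolic malate dehydrogenase and so the counterpart of Mdh2, fell furthest of the list, with 24.8 ± 12.7 CPM in mitochondria and 463.3 ± 61.0 CPM in muscle (log2 fold change -6.44 ± 0.17, SE, edgeR adjusted p = 7.91e-25).

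The 5 that rose were Pck1, Slc25a13, Me2, Pck2 and Slc25a1, all with mean muscle levels under 5 CPM. Pck1, the cytosolic phosphoenolpyruvate carboxykinase known from liver and kidney, had 32.7 ± 13.4 CPM in mitochondria and 0.209 ± 0.235 CPM in muscle (log2 fold change 5.06 ± 0.36, SE, edgeR adjusted p = 2.60e-14). Its mitochondrial counterpart Pck2 had 40.5 ± 17.5 CPM in mitochondria and 4.19 ± 0.95 CPM in muscle. Slc25a13, the aspartate-glutamate carrier known from liver, had 37.4 ± 8.35 CPM in mitochondria and 1.802 ± 0.391 CPM in muscle, while Slc25a12, the form known from muscle and brain, had 38.7 ± 6.33 CPM in mitochondria and 325.6 ± 13.4 CPM in muscle. Me2, the NAD-dependent malic enzyme, had 34.55 ± 8.86 CPM in mitochondria and 3.36 ± 0.426 CPM in muscle, and the citrate carrier Slc25a1 17.7 ± 4.71 and 2.15 ± 0.454 CPM. Acly, the cytosolic ATP citrate lyase, did not pass with TMM (0.05 ± 0.12, edgeR adjusted p = 0.686) and was higher with total counts (2.18). Pc, the pyruvate carboxylase that makes oxaloacetate, was lower with TMM (-0.70) and higher with total counts (1.41), as was Me3 (-1.63 and 0.46). Idh1, the cytosolic counterpart of Idh2, had 22.2 ± 6.62 CPM in mitochondria and 19.5 ± 2.14 CPM in muscle, with overlap. It was called lower with TMM (-1.96) but not called with total counts (0.14, edgeR adjusted p = 0.485). Slc25a12, Pc, Me3 and Idh1 were picked after their values were seen.

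**Figure D5:**
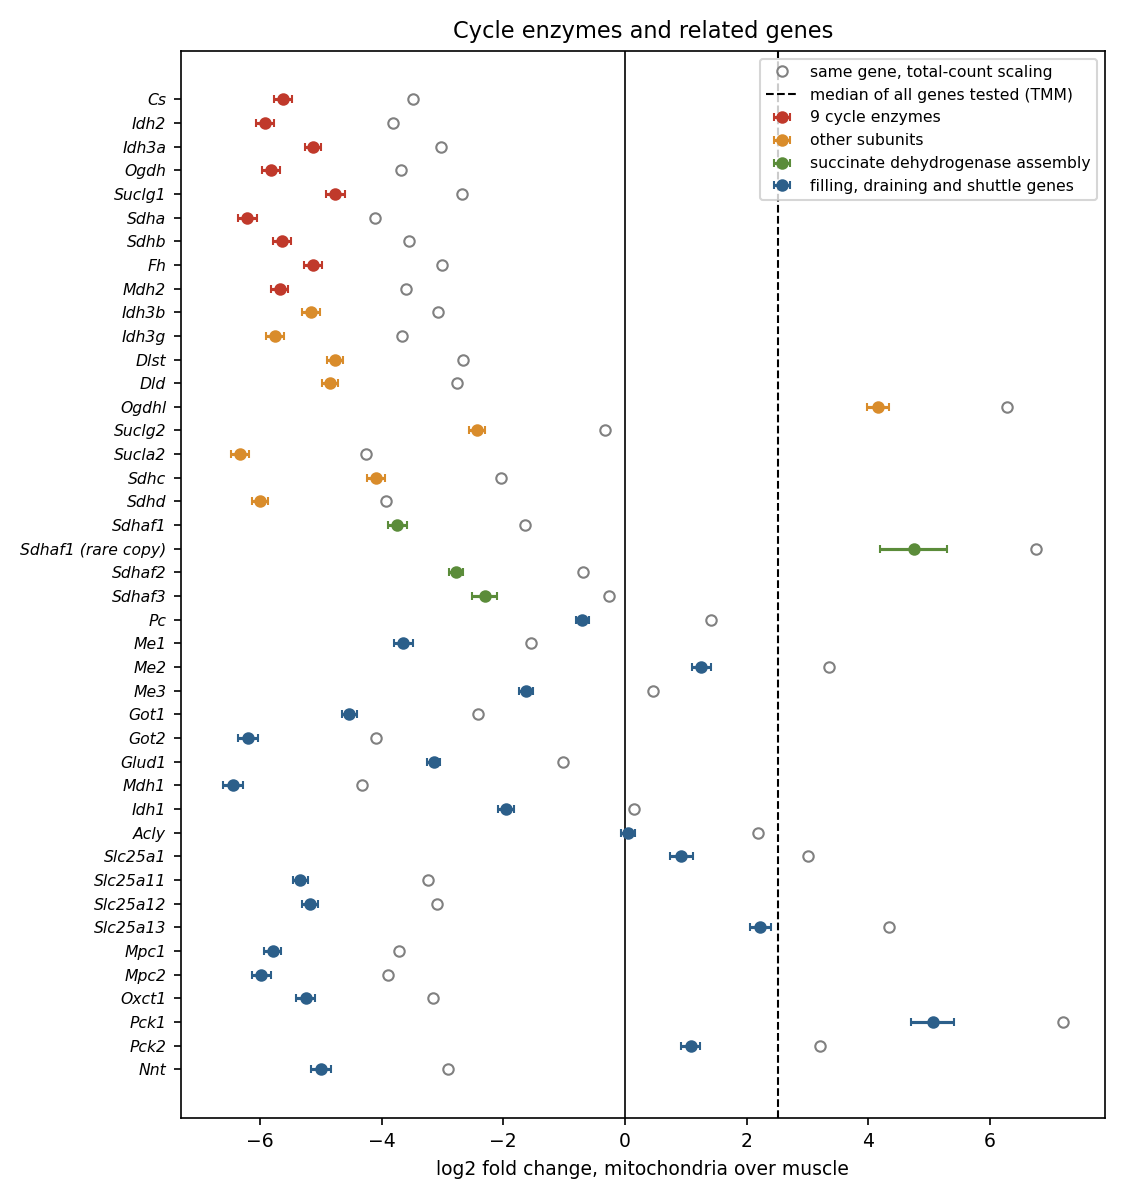
Log2 fold change, mitochondria over muscle, of the 9 cycle enzymes and of the 3 related lists with TMM scaling (filled points, bars for SE) and with total counts (open points), with a dashed line at the median of all genes tested with TMM. The 9 enzymes lie between -6.21 and -4.76 with TMM and between -4.10 and -2.67 with total counts, while Ogdhl and Pck1 lie at 4.15 and 5.06 with TMM.

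The genes whose profile over the 12 libraries was most like that of the 9 were Uqcrc1, Chchd3, Rnf139, Psap and Slc2a4. Likeness was the root mean square distance of centred log2 CPM from the median profile of the 9, and these 5 genes lay at 0.14 to 0.16. The 9 members themselves lay at 0.18 (Idh2) to 0.54 (Suclg1), and the median over all genes tested was 3.98. Uqcrc1, a core subunit of complex III, had 29.55 ± 7.19 CPM in mitochondria and 308.7 ± 10.2 CPM in muscle (SD, n = 6 each). Chchd3, of the complex that shapes the cristae, had 23.7 ± 6.28 and 290.6 ± 21.2 CPM, and Slc2a4, the insulin-regulated glucose transporter, 24.5 ± 4.68 and 333 ± 24.9 CPM. Rnf139, a ubiquitin ligase of the endoplasmic reticulum, had 43.5 ± 13.8 CPM in mitochondria and 468.2 ± 42.2 CPM in muscle, and Psap, a precursor of lysosomal activator proteins, 40.7 ± 10.1 and 437.3 ± 42.9 CPM. Most of this likeness is the difference between the groups, which the profiles share.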

How the data were processed

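The authors deposited raw read counts for each gene, and all 12 library columns matched a sample. Per the submitters' processing notes, the tools were STAR 2.7.11a, HTSeq, cutadapt 4.6 and FastQC 0.74, on the build mRatBN7.2. For the strand setting and for multiply mapped reads no source used here gives the choice. From the counts, CPM were computed on the total of gene counts. The test was edgeR 4.0.16 (glmQLFit and glmQLFTest, R 4.3.3) with TMM and no covariate. Genes passed filterByExpr at 10 counts, and p-values were adjusted by Benjamini-Hochberg over 24679 genes at a threshold of 0.05. All 9 enzymes passed the filter. Each SE was taken as the size of the log2 fold change over the root of its F statistic. Ratios were compared by an exact permutation test over all 924 assignments (SciPy 1.17.1).

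Muscle and mitochondria of a replicate number come from the same rat, per the labels and the series text. The deviations of such pairs from their group means correlated at -0.0080 to 0.0201 over genes. Alternatives were RLE, total counts, nuclear genes alone, mitochondrial genome counts, DESeq2 1.42.0, no filter, a fold of 2, thinned counts, each library left out and the animal as a block. CPM carries no correction for gene length, so levels of different genes are not ranked. The genes and lists were chosen with earlier results of these data known. Within each list the rule named the gene with the highest muscle CPM, the largest fall, the largest rise and all that did not fall, and outside the lists the 5 nearest profiles. Suclg2, Sdhc, Sdhd, Idh3b, Idh3g, Dlst and Dld were named beside the rule, to complete the enzymes.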

Additional observations from a re-analysis of the deposited data

Results flagged for a closer look

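Of 22 sets of 6 values checked for a sample apart from the rest, 2 held one, and chance gives about 1 in 20. Suclg1 had 156.6 CPM in muscle replicate 2, where the other 5 muscle libraries had 91.9 to 112.4 CPM. Scaled to nuclear counts it had 231.4 there, above the 139.8 to 174.2 of the others. Mdh2 had 31.53 CPM in mitochondria replicate 3, where the other 5 mitochondria libraries had 19.7 to 22.6 CPM. Scaled to nuclear counts Mdh2 had 36.2 in that library, within the 27.9 to 46.2 of the others.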

How the results depend on the processing

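All 9 enzymes stayed lower and past the threshold under each of the 21 alternatives, 189 values in all with a largest adjusted p of 7.37e-06, relative to mitochondrial genome counts. Their log2 fold changes ran from -5.84 to -4.39 with RLE, from -5.85 to -4.40 in DESeq2, from -5.11 to -3.61 after thinning to 573903 nuclear counts and from -6.29 to -4.52 with single libraries left out. The animal as a replicate block left 9 enzymes, 8 other subunits, 3 assembly factors and 14 genes of the third list lower, the same numbers as without it, with 15511 genes higher and 7427 lower over all. It changed no call of the 9, and the exact sign-flip permutation test of each ratio over pairs gave p = 0.03125, the smallest 6 pairs allow. Relative to mitochondrial genome counts 1 assembly factor was lower. The counts over all genes moved with the scaling: 15544 were higher and 7470 lower with TMM (67.5% of calls higher), 20795 and 2228 with total counts (90.3%), and 19614 and 1071 relative to mitochondrial genome counts (94.8%). After thinning 14465 genes were left to test, with 8428 higher and 4055 lower. With single libraries left out 11478 to 16363 genes were higher and 6925 to 7514 lower. The number tested also changed. It was 20003 to 20007 without a muscle library (62.2% to 62.5% of calls higher). Without a mitochondria library it was 25287 to 25696 (68.1% to 68.6% of calls higher). With single libraries left out, the differences ran from 0.38 to 0.66 for the log2 Sdhb to Sdha ratio and from -0.87 to -0.68 for Idh2 to Idh3a. Depth limits the mitochondria side, where a member rests on 15 to 94 reads.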
